A study of Saccharomyces cerevisiae with 26 samples.

Results

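The genes described here are 10 genes of the yeast pheromone response, taken as a list of names: the receptors STE2 and STE3, the G protein subunit GPA1, the negative regulators SST2 and BAR1, the transcription factor STE12, the cell cycle inhibitor FAR1, and the fusion and agglutination genes FUS1, AGA1 and AGA2. All 10 of the 10 listed genes had a spot on the arrays, of 5606 genes in all. FUS1 had 2 spots, which were averaged, and each of the others had 1.

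The arrays followed Saccharomyces cerevisiae grown on galactose in a chemostat, a culture held at a steady supply of medium, after a transient pulse of glucose. Glucose at 2 g/l was followed on 14 arrays between 3 and 240 min, and glucose at 0.2 g/l on 12 arrays between 2 and 150 min. Each array compared total RNA of the culture at 1 time after the pulse, in the Cy5 channel, with RNA of t=0, in the Cy3 channel. The labels give no strain, mating type or agent other than galactose and glucose, and name no pheromone.

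A value is read here as a log2 ratio of a time after the pulse over t=0, so 0 means no difference from t=0 and 1 means a doubled signal. The deposited values state neither scale nor direction, so log2 was read off the values and the direction is assumed. The ratio gives no level, and in RNA of a whole culture fewer cells of a type and less RNA per cell cannot be told apart. The times were grouped into windows, called early (3 to 10 min after 2 g/l, 4 arrays; 2 to 10 min after 0.2 g/l, 5 arrays), middle (15 to 45 min, 4 arrays in each pulse), late (90 to 150 min, 3 arrays in each pulse) and, after 2 g/l only, last (180 to 240 min, 3 arrays). The arrays of a window are successive times of 1 culture and not replicate cultures, so the SD given with a mean also holds real change within the window. Pulse and culture cannot be told apart. With t=0 in Cy3 on every array, a steady difference from t=0 and a dye effect of a spot cannot be told apart either. The labels do not say whether the arrays of a pulse shared the same extract of t=0. The tests take the arrays as independent, so an error shared through t=0 is not in their p.

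In budding yeast a secreted peptide pheromone of the opposite mating type binds a receptor that signals through a heterotrimeric G protein. The freed beta and gamma subunits start a kinase cascade that activates the transcription factor Ste12, which raises genes for adhesion, cell cycle arrest and cell fusion. Several genes of the pathway, among them SST2, BAR1 and GPA1, act to dampen it, and some genes of the pathway are known to be transcribed in one mating type only.

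The genes did not move as 1 group. STE2 was above t=0 on all 26 arrays. FUS1 was below t=0 on all 22 arrays on which it had a value. FAR1 was low after 2 g/l only. BAR1, STE12 and AGA1 were higher after 2 g/l than after 0.2 g/l in the middle window. Of the 9 genes with enough values to be tested, 7 passed the test in the 2 g/l middle window, where 43.8% of all 5372 tested genes did, so that a change as such was common there.

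**Figure D1:**
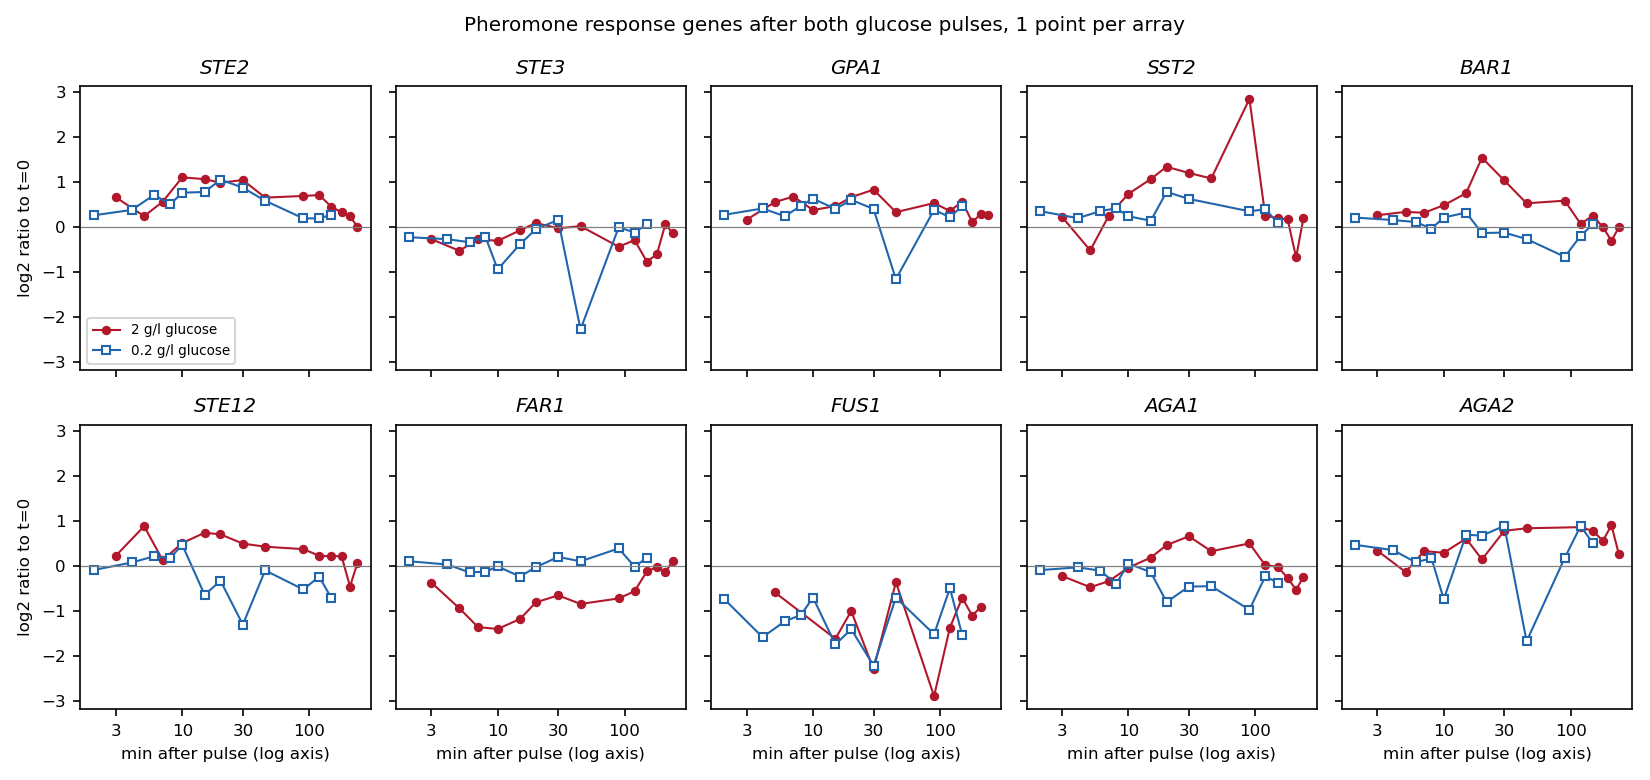
Log2 ratio to t=0 of each of the 10 genes (vertical axis) against minutes after the pulse (horizontal log axis), 1 point per array, for 2 g/l (filled circles) and 0.2 g/l (open squares). STE2 lies above 0 at every time in both pulses, FUS1 lies below 0 wherever it has a value, and FAR1 separates the pulses from 5 min to 120 min.

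Some arrays stood apart from the rest. Between 0.071% and 8.96% of the genes lacked a value on an array, and over 5% did at 10 min after 2 g/l and at 15, 30 and 45 min after 0.2 g/l. The array at 45 min after 0.2 g/l was the least like the others of its window, with a correlation over genes of 0.12 with their mean, and the next lowest were 0.36 at 30 min and 0.44 at 90 min of the same pulse.

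In the 2 g/l early window 5 of the 9 tested genes passed an adjusted p of 0.05, 4 higher and 1 lower, against 37.6% of all tested genes. In the 2 g/l middle window 6 were higher and 1 lower. In the 2 g/l late window 2 were higher and 1 lower, against 14.5% of all genes, and in the 2 g/l last window 0 passed limma's test, against 8.38%, with 1 at an unadjusted p under 0.05. The median estimate of the 9 genes was 0.21, 0.59, 0.31 and -0.06 in the early, middle, late and last windows of the 2 g/l pulse, where the median of all tested genes was -0.04, -0.03, 0.02 and 0.05.

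Fewer of the genes passed after 0.2 g/l. In the early window 1 of 9 did, higher, against 29.8% of all tested genes. In the middle window 4 did, 1 higher and 3 lower, against 39.5%, and in the late window 1 did, lower, against 7.54%. The median estimate of the 9 genes was 0.14, 0.01 and 0.19 in these windows, against 0.02, -0.13 and 0.03 for all tested genes.

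**Figure D2:**
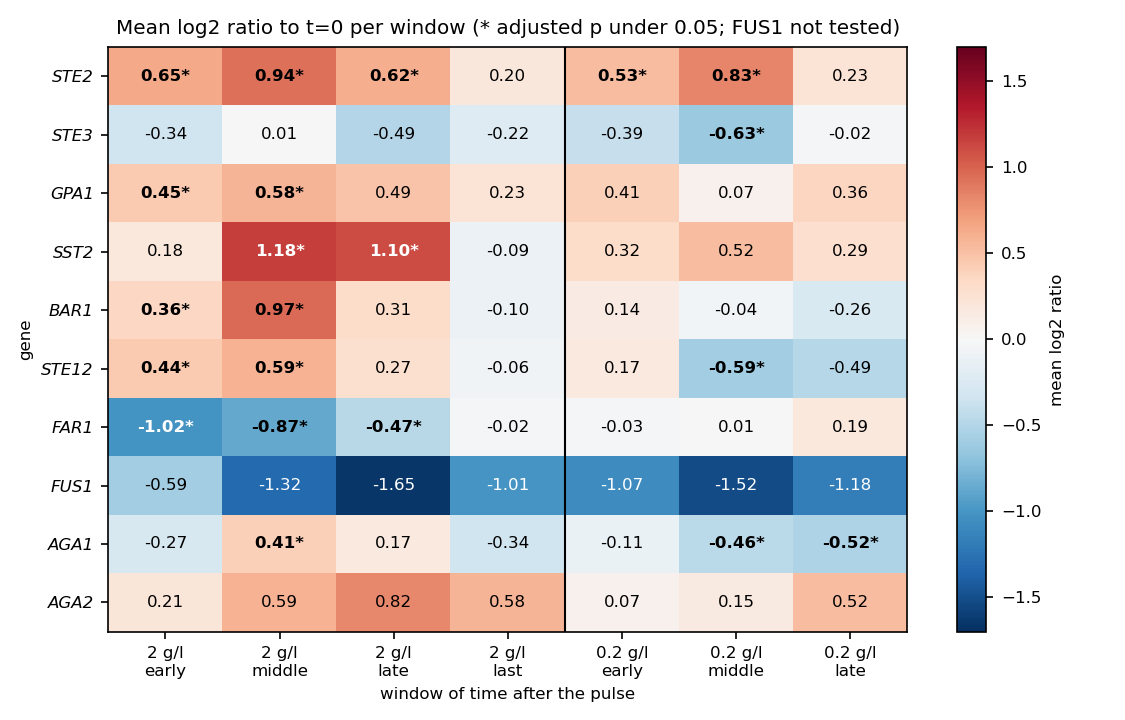
Mean log2 ratio to t=0 (colour and number) of each gene (rows) in each window (columns), with the 2 g/l windows left of the 0.2 g/l windows; an asterisk marks an adjusted p under 0.05 in limma's test over all genes. STE2 passes in 5 windows, FAR1 in 3 windows of the 2 g/l pulse only, and FUS1, which was not tested in this fit, is negative throughout.

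STE2, the receptor for alpha-factor, rose in both pulses. After 2 g/l its log2 ratio was 0.66, 0.25, 0.57 and 1.11 at 3, 5, 7 and 10 min, and 1.07, 0.99, 1.05 and 0.66 at 15, 20, 30 and 45 min. It was then 0.70, 0.72 and 0.45 at 90, 120 and 150 min, and 0.34, 0.24 and 0.02 at 180, 210 and 240 min. The values were highest between 10 and 30 min and near 0 at the last time. The window means were 0.65 ± 0.36 early (SD, n = 4; adjusted p = 0.000385), 0.94 ± 0.19 in the middle (n = 4; adjusted p = 3.14e-06) and 0.62 ± 0.15 late (n = 3; adjusted p = 0.0029), and the last window, at 0.20 ± 0.16 (n = 3), did not pass (adjusted p = 0.406).

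STE2 took nearly the same course after 0.2 g/l. Its log2 ratio was 0.27, 0.39, 0.72, 0.51 and 0.77 at 2, 4, 6, 8 and 10 min, 0.78, 1.06, 0.88 and 0.59 at 15, 20, 30 and 45 min, and 0.20, 0.20 and 0.28 at 90, 120 and 150 min. The early mean was 0.53 ± 0.21 (SD, n = 5; adjusted p = 0.000752) and the middle mean 0.83 ± 0.20 (n = 4; adjusted p = 4.28e-05), while the late mean of 0.23 ± 0.05 (n = 3) did not pass (adjusted p = 0.336). The values after 2 g/l minus those after 0.2 g/l gave differences of 0.12 (SE 0.15) early, 0.11 (SE 0.16) in the middle and 0.40 (SE 0.19) late, with adjusted p of 0.9, 0.651 and 0.307. Taken against the last window of the same pulse in place of t=0, the middle mean passed after 2 g/l only. After 0.2 g/l the middle value was 0.60 (adjusted p = 0.0767). The early values against that window, 0.45 after 2 g/l and 0.30 after 0.2 g/l, did not pass. Nor did the late value after 2 g/l, at 0.42.

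STE3, the receptor for a-factor, passed in 1 window, on 1 array. After 2 g/l it ranged between -0.76 and 0.10, below 0 on 11 of 14 arrays. After 0.2 g/l its middle values were -0.38, -0.04, 0.16 and -2.27 at 15, 20, 30 and 45 min, with a mean of -0.63 ± 1.11 (SD, n = 4; adjusted p = 0.0367). Without the 45 min array the mean was -0.08 (adjusted p = 0.64). Values exist for receptors of both mating types, and a ratio to t=0 does not show whether either receptor was expressed.

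GPA1, the alpha subunit that binds the beta and gamma subunits at rest, was above t=0 on all 14 arrays of the 2 g/l pulse. Its log2 ratio there was 0.17, 0.56, 0.68 and 0.38 at 3, 5, 7 and 10 min, 0.47, 0.67, 0.84 and 0.34 at 15, 20, 30 and 45 min, 0.54, 0.36 and 0.57 at 90, 120 and 150 min, and 0.12, 0.29 and 0.28 at 180, 210 and 240 min. The early mean of 0.45 ± 0.22 (SD, n = 4) stood at the threshold (adjusted p = 0.0496) and did not pass without the 5, 7 or 10 min array (adjusted p = 0.13, 0.194 and 0.109). The middle mean of 0.58 ± 0.22 (n = 4; adjusted p = 0.0108) did not pass without the 30 min array (adjusted p = 0.0659). It also did not pass against the last window of the pulse, where the value was 0.35 (adjusted p = 0.381).

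GPA1 lay between 0.23 and 0.64 on 11 of 12 arrays of the 0.2 g/l pulse. The exception was the array at 45 min, at -1.15, beside 0.41, 0.61 and 0.41 at 15, 20 and 30 min. Its middle mean was therefore 0.07 ± 0.82 (SD, n = 4; adjusted p = 0.777), and it was 0.47 (adjusted p = 0.00137) without that array. The early mean of 0.41 ± 0.16 (n = 5) was just outside the threshold (adjusted p = 0.0536). The middle difference between the pulses was 0.51 (SE 0.25; adjusted p = 0.16).

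SST2, which turns Gpa1 off by speeding its GTP hydrolysis, had the highest middle mean of the 10 genes after 2 g/l. Its log2 ratio was 0.23, -0.51, 0.26 and 0.74 at 3, 5, 7 and 10 min and 1.07, 1.34, 1.21 and 1.08 at 15, 20, 30 and 45 min. It was 2.85, 0.26 and 0.20 at 90, 120 and 150 min and 0.18, -0.67 and 0.21 at 180, 210 and 240 min. The 4 middle values lay close together, with a mean of 1.18 ± 0.13 (SD, n = 4; adjusted p = 0.00173). The late mean of 1.10 ± 1.51 (n = 3; adjusted p = 0.0237) rested on the 90 min array and was 0.23 (adjusted p = 0.697) without it.

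SST2 was above t=0 on all 11 arrays with a value after 0.2 g/l. It was 0.36, 0.20, 0.36, 0.42 and 0.25 at 2, 4, 6, 8 and 10 min, 0.15, 0.79 and 0.63 at 15, 20 and 30 min, without a value at 45 min, and 0.36, 0.40 and 0.11 at 90, 120 and 150 min. No window passed, with a middle mean of 0.52 ± 0.33 (SD, n = 3; adjusted p = 0.199). The middle values of the 2 pulses did not overlap, but their difference of 0.66 (SE 0.42) did not pass (adjusted p = 0.287). The share of all genes without such an overlap was not counted.

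BAR1, a secreted protease that destroys alpha-factor, rose after 2 g/l only. Its log2 ratio was 0.27, 0.34, 0.32 and 0.49 at 3, 5, 7 and 10 min, 0.76, 1.55, 1.04 and 0.53 at 15, 20, 30 and 45 min, 0.59, 0.08 and 0.26 at 90, 120 and 150 min, and 0.00, -0.30 and -0.00 at 180, 210 and 240 min. The values were highest at 20 min and had returned to about 0 by 180 min. The middle mean was 0.97 ± 0.44 (SD, n = 4; adjusted p = 1.03e-05). The early mean of 0.36 ± 0.09 (n = 4; adjusted p = 0.0407) did not pass without any 1 of its 4 arrays, with adjusted p between 0.0624 and 0.159.

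BAR1 stayed near t=0 or under it after 0.2 g/l. It was 0.22, 0.16, 0.12, -0.03 and 0.22 at 2, 4, 6, 8 and 10 min, 0.33, -0.13, -0.12 and -0.26 at 15, 20, 30 and 45 min, and -0.66, -0.19 and 0.07 at 90, 120 and 150 min. No window passed, with adjusted p of 0.421, 0.81 and 0.346. The middle values of the pulses did not overlap, for which the share over all genes was not counted.

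STE12, the transcription factor of the response, moved in opposite directions. After 2 g/l its log2 ratio was 0.23, 0.88, 0.13 and 0.51 at 3, 5, 7 and 10 min, 0.74, 0.70, 0.50 and 0.43 at 15, 20, 30 and 45 min, 0.37, 0.23 and 0.21 at 90, 120 and 150 min, and 0.22, -0.46 and 0.07 at 180, 210 and 240 min. After 0.2 g/l it was -0.09, 0.08, 0.22, 0.18 and 0.47 at 2, 4, 6, 8 and 10 min, -0.64, -0.33, -1.30 and -0.10 at 15, 20, 30 and 45 min, and -0.52, -0.24 and -0.72 at 90, 120 and 150 min. All arrays from 15 to 150 min were above 0 after 2 g/l and below 0 after 0.2 g/l.

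In the middle window STE12 averaged 0.59 ± 0.15 in the 2 g/l pulse (SD, n = 4), which passed with an adjusted p of 0.00331, and -0.59 ± 0.52 in the 0.2 g/l pulse (SD, n = 4), which passed with an adjusted p of 0.00479. The fall after 0.2 g/l did not pass without the 30 min array, where the mean was -0.36 (adjusted p = 0.0629), or against the late window of that pulse, where the difference was -0.10 (adjusted p = 0.826). Within the 0.2 g/l pulse the middle window was lower than the early one by -0.76 (SE 0.21; adjusted p = 0.0306), the only 1 of the 9 genes to pass there, against 6.22% of all tested genes. That step did not pass without the 30 min array (-0.53, adjusted p = 0.123). The early mean after 2 g/l, 0.44 ± 0.34 (n = 4; adjusted p = 0.0277), did not pass without the 5 or the 10 min array (adjusted p = 0.191 and 0.102).

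FAR1, which holds the cell cycle in G1 in response to pheromone and helps to orient growth, fell after 2 g/l. Its log2 ratio was -0.37, -0.94, -1.36 and -1.40 at 3, 5, 7 and 10 min and -1.18, -0.81, -0.65 and -0.84 at 15, 20, 30 and 45 min. It was then -0.72, -0.56 and -0.12 at 90, 120 and 150 min and -0.02, -0.13 and 0.11 at 180, 210 and 240 min. The lowest values were at 7 and 10 min, and FAR1 was back at t=0 by 180 min. The early mean was -1.02 ± 0.48 (SD, n = 4; adjusted p = 2.69e-05), which held under every alternative run, and the middle mean -0.87 ± 0.22 (n = 4; adjusted p = 2.80e-05). The late mean of -0.47 ± 0.31 (n = 3; adjusted p = 0.0435) did not pass without the 90 or the 120 min array (adjusted p = 0.379 and 0.218).

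FAR1 lay between -0.23 and 0.39 after 0.2 g/l, above 0 on 6 arrays and below 0 on 6. It was 0.11, 0.03, -0.14, -0.13 and -0.01 at 2, 4, 6, 8 and 10 min, -0.23, -0.03, 0.20 and 0.10 at 15, 20, 30 and 45 min, and 0.39, -0.01 and 0.18 at 90, 120 and 150 min. The window means were -0.03 ± 0.11 (SD, n = 5), 0.01 ± 0.19 (n = 4) and 0.19 ± 0.20 (n = 3), and none passed (adjusted p = 0.887, 0.954 and 0.534). The early, the middle and the late values of the pulses did not overlap, though the late difference did not pass (adjusted p = 0.112). How many of all genes separate in this way was not counted.

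FUS1, a membrane protein needed for cell fusion in mating and a standard reporter of the pathway, was the lowest of the 10 genes. After 2 g/l its log2 ratio was -0.59 at 5 min, without values at 3, 7 and 10 min, and -1.62, -1.001, -2.29 and -0.36 at 15, 20, 30 and 45 min. It was -2.89, -1.37 and -0.71 at 90, 120 and 150 min and -1.10 and -0.91 at 180 and 210 min, without a value at 240 min. After 0.2 g/l it was -0.74, -1.58, -1.23, -1.09 and -0.70 at 2, 4, 6, 8 and 10 min, -1.74, -1.40, -2.21 and -0.70 at 15, 20, 30 and 45 min, and -1.52, -0.49 and -1.53 at 90, 120 and 150 min. The median over its 22 arrays was -1.16.

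FUS1 was left out of the fit over all windows, which asked for 2 values in each, since only 1 of 4 early arrays after 2 g/l gave one. With 2 values required only in the windows compared, it fell in 4 windows: -1.32 in the 2 g/l middle window (adjusted p = 0.00283), -1.66 in the 2 g/l late window (adjusted p = 0.00569), -1.07 in the 0.2 g/l early window (adjusted p = 0.00938) and -1.52 in the 0.2 g/l middle window (adjusted p = 0.00162). The 2 spots differed by a median of 0.40 and by up to 1.72 over the 19 arrays that had both. The first was below 0 on 19 of 20 arrays and the second on 21 of 21. FUS1 was already at -0.74 at 2 min and still at -0.91 at 210 min. A low value on every array does not tell a change after the pulse from a t=0 sample that was high for this gene. The same limit holds for other genes on 1 side of 0 on nearly every array, where they were tested only against t=0.

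AGA1, the anchor subunit of a-agglutinin, followed the 2 pulses in different ways. After 2 g/l its log2 ratio was -0.22, -0.47, -0.34 and -0.04 at 3, 5, 7 and 10 min, 0.19, 0.46, 0.66 and 0.33 at 15, 20, 30 and 45 min, 0.50, 0.02 and -0.02 at 90, 120 and 150 min, and -0.26, -0.53 and -0.24 at 180, 210 and 240 min. It was below t=0 on every early and every last array and above it on every middle array. The middle mean was 0.41 ± 0.20 (SD, n = 4; adjusted p = 0.0107), which did not pass without the 30 min array (adjusted p = 0.0809).

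Within the 2 g/l pulse AGA1 rose in the middle window against the early one by 0.68 (SE 0.18; adjusted p = 0.0473). It was the only 1 of the 9 genes to pass in that step, against 2.1% of all tested genes, and it did not pass with any of 6 of the 8 arrays of these windows left out (adjusted p between 0.0791 and 0.137). The next step in that pulse, late minus middle, had 0 of 9 genes past limma's test, against 4.26% of all genes. BAR1, at -0.66 (SE 0.20), was the 1 gene with an unadjusted p under 0.05 there (adjusted p = 0.0701), and it passed without the 45 min array (-0.81, adjusted p = 0.029).

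AGA1 fell after 0.2 g/l. It was -0.09, -0.03, -0.10, -0.40 and 0.05 at 2, 4, 6, 8 and 10 min, -0.14, -0.80, -0.46 and -0.45 at 15, 20, 30 and 45 min, and -0.97, -0.23 and -0.37 at 90, 120 and 150 min. The middle mean was -0.46 ± 0.27 (SD, n = 4; adjusted p = 0.00665) and the late mean -0.52 ± 0.39 (n = 3; adjusted p = 0.027). The middle mean did not pass without the 20 min array (adjusted p = 0.0669), and against the late window of that pulse it was 0.06 (adjusted p = 0.872). The late mean did not pass without the 90 or the 150 min array (adjusted p = 0.352 and 0.0859). In the step late minus middle after 0.2 g/l, 0 of the 9 genes passed limma's test, against 1.9% of all genes, and the 1 with an unadjusted p under 0.05 was STE2, at -0.60 (SE 0.18; adjusted p = 0.0767), which passed without the 45 min array (-0.68, adjusted p = 0.0157).

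AGA2, the adhesive subunit that Aga1 anchors, did not move with AGA1. It was above t=0 on 12 of 13 arrays after 2 g/l, with a range of -0.13 to 0.91, and on 10 of 12 arrays after 0.2 g/l, with a range of -1.67 to 0.89. No window passed. Its middle mean after 2 g/l was 0.59 ± 0.31 (SD, n = 4; adjusted p = 0.0893). After 0.2 g/l its middle values were 0.69, 0.67, 0.89 and -1.67 at 15, 20, 30 and 45 min, and without the 45 min array, on which GPA1 and STE3 also had their lowest values, the mean was 0.75 (adjusted p = 0.00276).

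The pulses differed for 4 of the 9 genes in the middle window, 3 higher and 1 lower after 2 g/l, against 14.8% of all tested genes. STE12 was higher by 1.18 (SE 0.22; adjusted p = 0.00216), BAR1 by 1.01 (SE 0.19; adjusted p = 0.0023) and AGA1 by 0.87 (SE 0.18; adjusted p = 0.00331). FAR1 was lower, with a difference of -0.88 (SE 0.19; adjusted p = 0.00459). The 4 calls held with each array left out in turn. Without the arrays with over 5% of genes missing, STE12 (0.92, adjusted p = 0.0618) and FAR1 (-0.84, adjusted p = 0.0862) did not pass, in a fit that left 1 array in the 0.2 g/l middle window and took it to vary like the arrays of the other windows. They were lost when only these 2 windows entered the fit (adjusted p between 0.076 and 0.0913) and when time was a block (adjusted p between 0.125 and 0.128), settings in which 0 of all tested genes passed.

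In the early window FAR1 alone of the 9 genes differed, by -0.99 (SE 0.18; adjusted p = 0.0055), where 0.484% of all tested genes did. This call did not pass without the 7 min array of the 2 g/l pulse (-0.87, adjusted p = 0.0534), without the arrays with over 5% of genes missing (-0.86, adjusted p = 0.0551) or with only the early windows in the fit (adjusted p = 0.135). In the late window 0 of 9 passed limma's test, against 3.03% of all genes, and 5 had an unadjusted p under 0.05. These 5 were STE12 at 0.76 (adjusted p = 0.104), AGA1 at 0.69 (adjusted p = 0.07), FAR1 at -0.65 (adjusted p = 0.112), BAR1 at 0.57 (adjusted p = 0.18) and STE2 at 0.40 (adjusted p = 0.307).

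**Figure D3:**
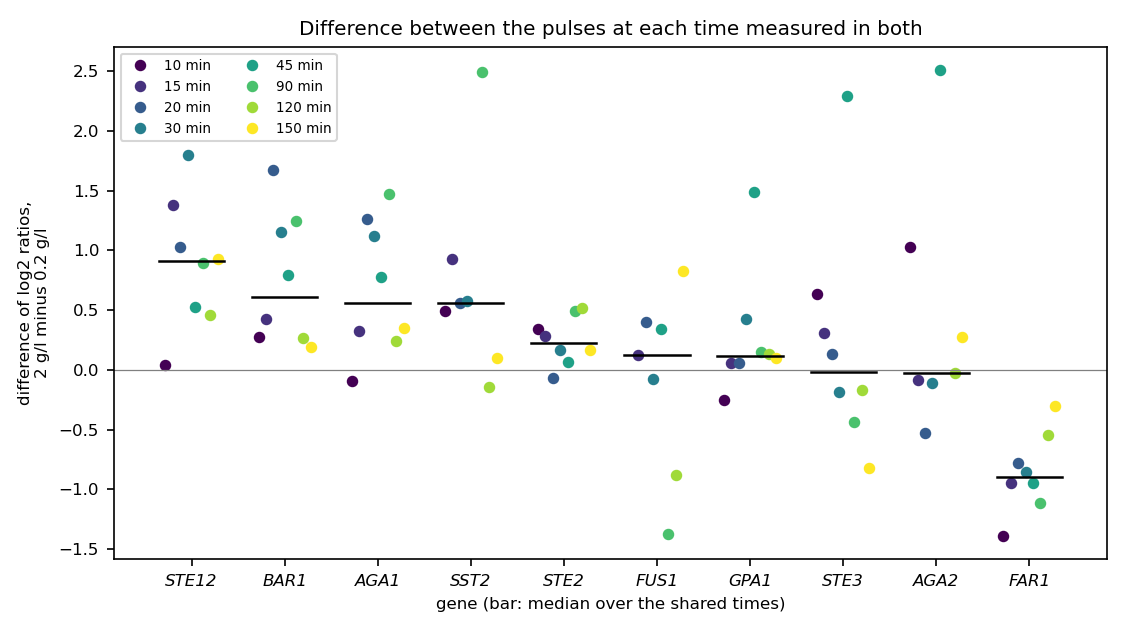
Difference of log2 ratios, 2 g/l minus 0.2 g/l (vertical axis), for each gene (horizontal axis) at each of the 8 times measured in both pulses (points, coloured by time), with the median as a bar. STE12 and BAR1 are above 0 at all 8 times and FAR1 is below 0 at all 8, while the points near 2.3 and 2.5 for STE3 and AGA2 are the 45 min array and that of SST2 the 90 min array.

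Time by time STE12, BAR1 and FAR1 kept their sign. At the 8 times that both pulses shared, from 10 to 150 min, the difference was positive at 8 of 8 for STE12 (0.04 to 1.80, median 0.91) and for BAR1 (0.19 to 1.67, median 0.61), and negative at 8 of 8 for FAR1 (-1.39 to -0.30, median -0.90). It was positive at 7 of 8 for AGA1 (median 0.56), for STE2 (median 0.23) and for GPA1 (median 0.12). It was positive at 6 of 7 for SST2, at 4 of 7 for FUS1, at 3 of 7 for AGA2 and at 4 of 8 for STE3. At 10 min FAR1 already differed by -1.39, whereas STE12 differed by 0.04 and AGA1 by -0.09. These signs are not a separate test. STE12, BAR1, FAR1 and AGA1 had passed in the middle difference, and the middle times are among those shared. FAR1 had also passed in the early difference, which holds the 10 min arrays. Successive times of a pulse also come from the same culture. The share of all genes with a constant sign was not counted.

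**Figure D4:**
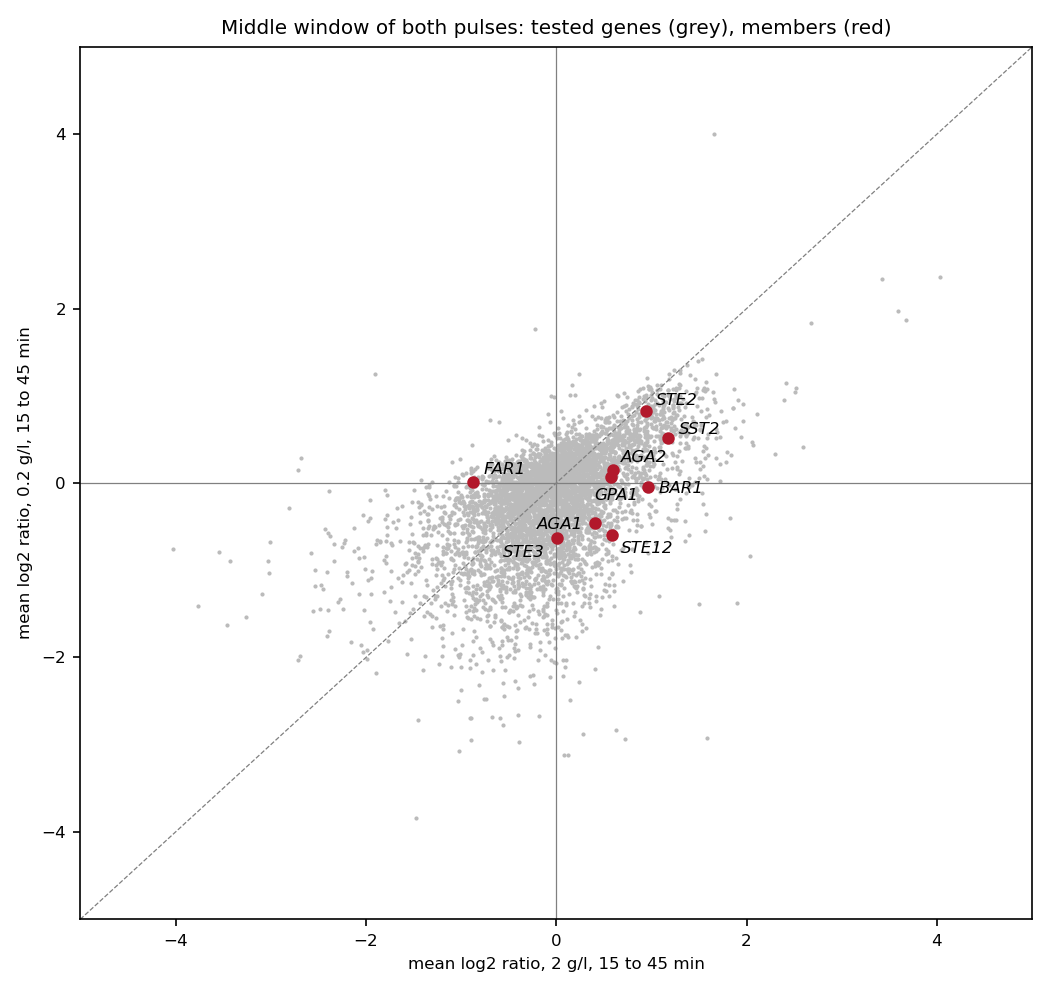
Mean log2 ratio to t=0 in the middle window after 2 g/l (horizontal axis) and after 0.2 g/l (vertical axis) for all tested genes (grey points) and the 9 tested genes of the pheromone response (red points); the dashed line marks equal means. STE2 lies near the line, FAR1 lies at -0.87 and 0.01, and BAR1, AGA1 and STE12 lie below 0 on the vertical axis and above 0 on the horizontal one.

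Over all arrays the genes fell into different patterns, described here by Pearson correlations over arrays that are all ratios to t=0. AGA1 and BAR1 were the most alike pair (r = 0.84, n = 26). STE12 was nearer to BAR1 (r = 0.63) and AGA1 (r = 0.58), and FAR1 ran opposite to BAR1 (r = -0.67) and STE12 (r = -0.66). STE3 and AGA2 correlated at 0.80 (n = 25) and STE3 and GPA1 at 0.72 (n = 26), pairs that share the low value on the 45 min array after 0.2 g/l. AGA1 and AGA2 correlated at 0.15 (n = 25).

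Among all genes with at least 24 shared arrays, the 3 most like STE2 were GLN4, a glutaminyl-tRNA synthetase gene (r = 0.90), and the ribosomal protein genes RPL13A and RPS28B (r = 0.89 for each). FAR1 was most like MLF3, FBP26 and PIG1 (r between 0.88 and 0.90), and FBP26 encodes a fructose-2,6-bisphosphatase. STE12 was most like PWP2, a gene of ribosome assembly (r = 0.89), IXR1 and MYG1. SST2 was most like TOS1 (r = 0.93), LCB3 and PUS9, and BAR1 was most like PDR12, GDA1 and AGA1 (r between 0.84 and 0.85). AGA1 was most like BAR1, IRC7 and LYS4 (r between 0.81 and 0.84). STE3 (ESA1, SWM2 and SRB7), AGA2 (ECM8, MDM10 and LNP1) and GPA1 (NGL2, CAC2 and TUB4) had their highest correlations between 0.90 and 0.92. STE3, AGA2 and GPA1 were each lowest at 45 min after 0.2 g/l (-2.27, -1.67 and -1.15). SST2 was highest at 90 min after 2 g/l (2.85). A lone far value can set such a correlation, and the ranking was not repeated without these arrays. FUS1 had too few arrays for this ranking.

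The rest of the pathway was read from lists of names, and whether their calls held with each array left out in turn was checked after seeing the data. Of the 4 pheromone genes, 3 fell in the 2 g/l early window, where 37.6% of all tested genes passed and 20.8% fell. These were MFA1 at -0.94, MF(ALPHA)1 at -0.77 and MF(ALPHA)2 at -0.61, and with 1 array left out 1 to 3 of them passed. MFA1, 1 of 2 genes for a-factor, was below 0 on 25 of 26 arrays. It passed in the 0.2 g/l early window (-1.28) and middle window (-1.47) with each array left out in turn. The middle mean held the 45 min array, at -3.89, and was -0.67 (adjusted p = 0.0097) without it. MFA1 also passed in the early, middle and late windows after 2 g/l, where each call was lost without some single arrays. MFA2, the other a-factor gene, passed in none, with 0.50 in the 2 g/l middle window (adjusted p = 0.0829). Genes of these pairs are alike in sequence, and their spots may not fully tell them apart, which was not tested. The transporter gene STE6, whose product exports a-factor, rose in the 2 g/l middle window (0.41) and the 0.2 g/l early window (0.48). Its value of 0.41 in the 0.2 g/l middle window did not pass without the 15 or the 20 min array (adjusted p = 0.0605 and 0.0861).

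For the G protein, the kinase cascade and polarity 13 genes were tested. In the 2 g/l early window 3 rose and 1 fell, against 37.6% of all tested genes. In the 2 g/l middle window 2 rose and 0 fell, against 43.8%, and in the 0.2 g/l early window 3 rose and 2 fell, against 29.8%. STE5 fell early after 2 g/l (-2.41 ± 3.11, SD, n = 3) and after 0.2 g/l (-1.425 ± 0.55, n = 5). The SD of the first mean was larger than the mean itself, so its 3 values lay far apart. The second call was lost without any 1 of its arrays. STE5 was below 0 on 21 of 23 arrays. STE4, the beta subunit, was above 0 on 25 of 26 arrays. It rose in the early, middle and late windows after 2 g/l (0.73, 0.72 and 0.58). After 0.2 g/l it rose in the middle window (0.48). Its calls in the 2 g/l last window (0.42) and the 0.2 g/l early window (0.32) were lost without some single arrays. AKR1, a negative regulator of the pathway in yeast, fell in both the early and the middle window after 0.2 g/l (-0.67 and -0.99). After 2 g/l it was higher in the early window (0.40, adjusted p = 0.0297) and lower in the late one (-0.70, adjusted p = 0.00568), and both of these calls were lost without some single arrays. None of the 4 tested transcription factor and inhibitor genes passed in the 2 g/l windows, where 8.38% to 43.8% of all tested genes did. TEC1 of that list rose in the 0.2 g/l middle window (0.34, adjusted p = 0.0295), where 39.5% of all tested genes passed. It also rose there against the early window (0.57, adjusted p = 0.0376). With 1 array left out, 0 to 1 of the list passed in the 0.2 g/l middle window.

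Of 22 tested pheromone-induced and fusion genes, AGA1 and FAR1 among them, 0 rose and 8 fell in the 2 g/l early window, where 37.6% of all tested genes passed and 20.8% fell. In the 0.2 g/l middle window 1 rose and 8 fell, where 39.5% of all tested genes passed and 24.4% fell. With 1 array left out, 4 to 7 and 5 to 9 of them passed in these windows. Their median estimates were -0.24 and -0.15, against -0.04 and -0.13 for all tested genes. PRM4 was below 0 on 25 of 26 arrays, with -1.38 in the 2 g/l early window (adjusted p = 1.59e-06) and -1.48 in the 0.2 g/l early window (adjusted p = 3.58e-08). FIG1 was below 0 on all 24 arrays with a value, like FUS1. It fell in 6 of 7 windows, with -1.13 in the 0.2 g/l late window and -1.02 in the 2 g/l late window, which did not pass without the 90 min array (adjusted p = 0.0843). Its calls in the early and last windows after 2 g/l were also lost without some single arrays. PRM7 rose in the 0.2 g/l early window (0.90).

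**Figure D5:**
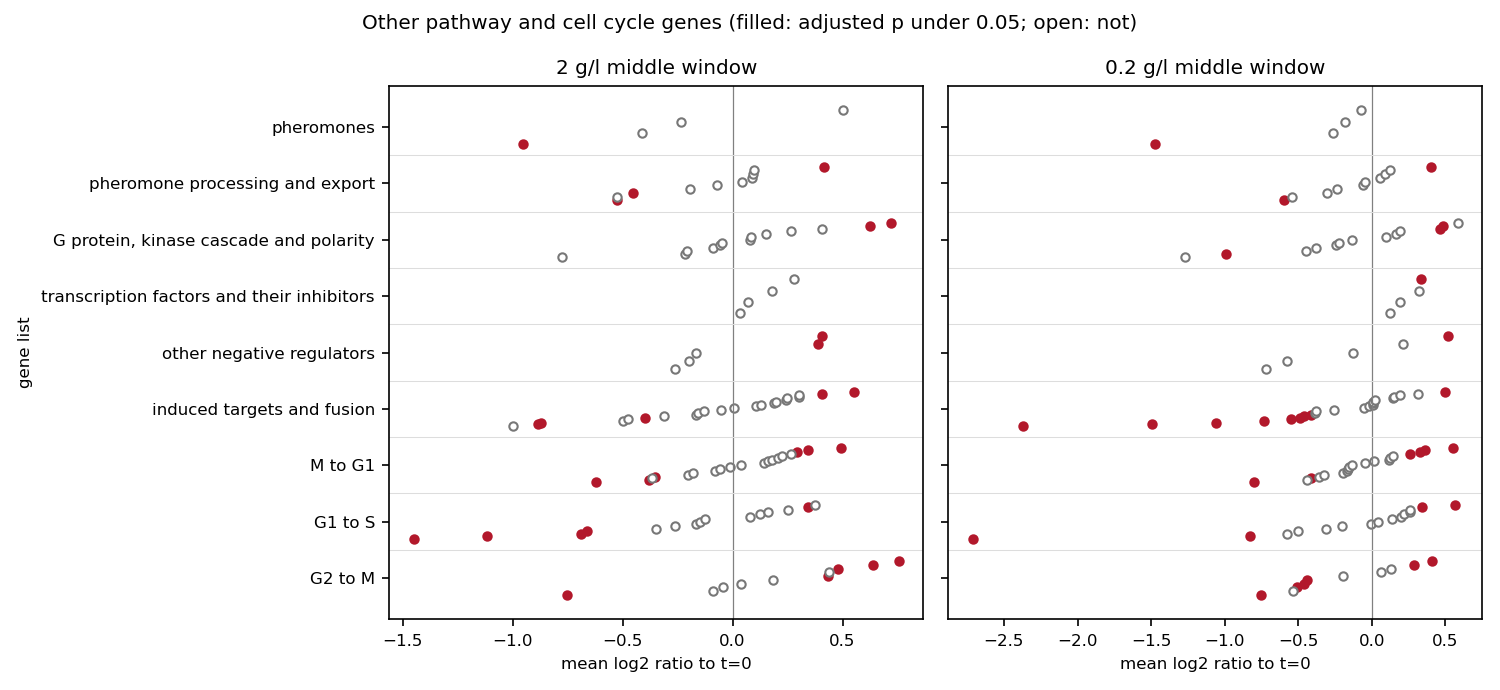
Mean log2 ratio to t=0 (horizontal axis) of each tested gene of 9 lists (rows) in the middle window after 2 g/l (left) and after 0.2 g/l (right), filled where the adjusted p was under 0.05. Most lists hold genes on both sides of 0, and of the induced and fusion genes 2 rose and 3 fell on the left and 1 rose and 8 fell on the right.

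Since FAR1 and AGA1 vary with the cell cycle in growing yeast, cell cycle lists were counted beside them. In the 2 g/l early window, where FAR1 was lowest and 37.6% of all tested genes passed, 0 of 19 genes of the M to G1 list rose and 3 fell, among them SWI4 at -0.89 and CLN3 at -0.35. With 1 array left out, 0 to 2 of these passed. Of 15 genes of the G1 to S list 3 rose and 3 fell in that window. RNR1, a ribonucleotide reductase gene of that list, was below 0 on all 26 arrays, and MNN1 of the same list was above 0 on all 26.

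Of 10 genes of the G2 to M list, 1 rose and 3 fell in the 2 g/l early window, and 1 to 3 passed with 1 array left out. In the 2 g/l middle window 4 rose and 1 fell, against 43.8% of all tested genes, and in the 0.2 g/l middle window 2 rose and 4 fell, against 39.5%. The 4 that fell there were CDC20, CDC5, BUD4 and ALK1, genes that act in mitosis or at the bud neck, and none of these 4 passed without the 30 min array, where the list had 1 higher and 1 lower. The difference between the pulses in the middle window passed for 4 of the 10, all higher after 2 g/l, against 14.8% of all tested genes, and for 2 to 5 with 1 array left out. The part of the cell cycle in the values of FAR1 and AGA1 was not tested.

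By mating type, 7 genes known to be specific to MATa cells, 4 to MATalpha cells and 10 to haploid cells all had a spot and were tested. In the 2 g/l middle window 43.8% of all tested genes passed and 21.7% rose. There 3 of the MATa genes rose, STE2, BAR1 and STE6, and 1 fell, MFA1 (-0.95), while 0 of the MATalpha genes passed. With 1 array left out, 3 to 4 of the MATa genes and 0 to 1 of the MATalpha genes passed. In the same window 3 of the haploid-specific genes rose, STE4, GPA1 and STE12, and 1 fell, FAR1. In the 2 g/l early window 2 of the MATa genes rose and 1 fell, and 2 of the MATalpha genes fell, against 37.6% of all tested genes. The counts were the same in the 0.2 g/l middle window, against 39.5%. With 1 array left out, 1 to 2 and 0 to 2 of the MATalpha genes passed in these windows. Of the MATa genes 1 to 2 passed in the 2 g/l early window, with at most 1 higher. In the 0.2 g/l middle window 2 to 5 of them did. These lists share genes with those above.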

How the data were processed

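Per the labels, Cy3 held t=0 and Cy5 a time after the pulse on all 26 two-colour arrays, with no dye swap. The values the authors deposited are normalized log2 ratios per spot. The table states neither scale nor direction: log2 was read off the values, and Cy5 over Cy3 is assumed. How the ratios were normalized is not given in the sources used here, apart from a regression correlation that the series' text names. The table held 10752 spots, 6834 with a gene, and arrays had 7627 to 9765 spots with a value. Array signals and spot intensities were not used here, so the number of arrays limits the precision.

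Spots of a gene were averaged. limma 3.58.1 fitted 1 mean per window to the 5372 genes that had 2 or more values per window (lmFit, eBayes, two-sided, Benjamini-Hochberg over all genes, threshold 0.05), for 14 comparisons. The fit was tested on simulated data. The genes and lists were chosen with earlier results of these data known. Named from the other lists were up to 3 passing genes with the largest estimates in a comparison, plus MFA2, named after its values were seen, and for likeness the 3 genes with the highest correlation. Alternatives were other centring, quantile normalization, filters, 1 spot per gene, fewer windows or arrays, robust eBayes, the last window in place of t=0, and time as a block; leaving out each array in turn for the other lists was added after seeing the data. No sequence was printed, and no coordinates, since no build is named.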

Additional observations from a re-analysis of the deposited data

Results flagged for a closer look

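Of 38 windows of 4 or 5 arrays tested for a value far from the others, 5 held one. Chance gives about 1 in 20 for independent values, but these are successive times, and windows of different genes share arrays. GPA1 at -1.15 and AGA2 at -1.67 stood apart at 45 min in the 0.2 g/l middle window, on the same array. STE3 stood apart at 10 min in the 0.2 g/l early window (-0.94), and at 5 min in the 2 g/l early window STE3 (-0.52) and AGA2 (-0.13) did. STE3 at 5 min only just met the rule. Its gap to the nearest value over the range was 0.8295, against a limit of 0.829. The windows of 3 arrays, among them the one with SST2 at 2.85, were too small for this rule.

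The pulses differed in the tested difference, 2 g/l minus 0.2 g/l, for FAR1 in the early window (-0.99) and in the middle window for FAR1 (-0.88), AGA1 (0.87), BAR1 (1.01) and STE12 (1.18).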

How the results depend on the processing

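The counts below are genes of the 9 (10 with FUS1) that passed, followed in parentheses by the count over all tested genes where that moved by over 1.5 times; the counts they are set against are those of the fit used in the report. Leaving out each array in turn gave 2 to 4 of the pheromone response genes in the 2 g/l early window, 5 to 7 in the middle, 1 to 3 late and 0 last. After 0.2 g/l it gave 1 early, 3 to 5 in the middle and 0 to 1 late. The differences between pulses gave 0 to 1 early, 4 in the middle and 0 late, and each of the 4 steps within a pulse gave 0 to 1. The cause of the changes below was not tested.

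With only the compared windows in the fit, 1 gene passed in the 2 g/l early window (877 against 2019 genes), 4 in the 2 g/l late window (1218 against 781), 0 in the 2 g/l last window (71 against 450), 4 in the 0.2 g/l early window, 0 in the 0.2 g/l middle window (2 against 2120) and 0 in the 0.2 g/l late window (0 against 405). In the same setting 0 passed for the early difference (12 against 26) and the middle difference (0 against 794). Of the steps middle minus early, 0 passed after 2 g/l (25 against 113) and 0 after 0.2 g/l (10 against 334), and of late minus middle, 1 after 2 g/l (742 against 229) and 0 after 0.2 g/l (1 against 102). These fits hold fewer arrays.

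Quantile normalization gave 6 genes in the 2 g/l late window (1443), 1 in the last (1202), 3, 2 and 4 in the 0.2 g/l early, middle and late windows (1299 late), 1 for the early difference (41), 4 for the late difference (654), 0 for 0.2 g/l middle minus early and 1 for late minus middle (340). Without the arrays with over 5% of genes missing, 6 passed in the 2 g/l late window (1323), 0 in the last (810), 3 in the 0.2 g/l early window, 3 in the middle (1193) and 3 late (783). In that setting 0, 2 and 2 passed for the early, middle and late differences (17, 309 and 383), 1 and 1 for the 2 g/l steps (391 and 670) and 0 and 1 for the 0.2 g/l steps (271 in the second). Only the 20 min array is then left in the 0.2 g/l middle window, so that each of these values that uses that window takes a lone array to vary like the others.

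Against the last window of the pulse, 1, 6 and 0 passed early, middle and late after 2 g/l (629, 1488 and 67 genes) and 0 and 0 early and in the middle after 0.2 g/l (203 and 102), where AGA1 turned to 0.0625. With time as a block, 0 passed for the middle difference (0 genes) and 0 for the late one (33). With 2 values required in the compared windows only, 2 passed in the 0.2 g/l early window. Requiring a value on all arrays left 1 in the 0.2 g/l late window (256 genes). Centring, 1 spot per gene and robust eBayes moved none of the 14 counts by over 1.5 times.

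Over all tested genes, quantile normalization moved the share of higher calls by over 10 percentage points. It gave 714 of 1443 higher in the 2 g/l late window (485 of 781 in the report's fit), 566 of 1202 last (320 of 450), 784 of 1453 in the 0.2 g/l middle window (811 of 2120) and 191 of 552 for the middle difference (458 of 794). For the steps it gave 33 of 92 and 156 of 227 after 2 g/l (27 of 113 and 186 of 229) and 171 of 385 and 163 of 340 after 0.2 g/l (61 of 334 and 68 of 102). Median centring did so in the 0.2 g/l late window (149 of 407 against 194 of 405) and in the 0.2 g/l steps (94 of 308 and 59 of 126).

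No paired analysis was possible because the labels give no replicate numbers; time as a block, above, sets the pulses side by side by time only. Precision is limited by 1 array per time, and spot brightness was not used here.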
